A study of Nicotiana benthamiana with 28 samples.

Results

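The comparison concerned the transcript changes that followed XEG1 in seedlings of 2 knockout genotypes, each affecting the perception of this protein. It used every library of the 2 knockout genotypes, the rxeg1 knockout and the sobir1/sobir1-like knockout, chosen by the genotype and treatment in their labels. These were 8 of the 28 libraries of the series, 4 after XEG1 protein and 4 after mock treatment, with genotype as a covariate. The plants were Nicotiana benthamiana, a relative of tobacco much used in work on plant immunity, taken as 12-day-old seedlings and sampled 3 h into the treatment. Each of the 4 groups (rxeg1 mock, rxeg1 XEG1, sobir1/sobir1-like mock, sobir1/sobir1-like XEG1) had 2 libraries. Wild-type seedlings under the same treatments gave 4 further libraries. Another 16 came from 4 construct lines, each of which carried an RXEG1syn construct behind the RXEG1 promoter in the rxeg1 knockout background. Titles name the control EV where the treatment label says mock, and the content of either preparation is not stated. Effects of XEG1 and of anything else that differed between the preparations therefore cannot be told apart. Whether each knockout was 1 line or several is likewise not stated.

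XEG1 is a cell-wall-degrading enzyme, a xyloglucanase, that the soybean pathogen Phytophthora sojae releases into the space between plant cells. Nicotiana benthamiana detects it with RXEG1, a receptor-like protein with leucine-rich repeats outside the cell and no kinase domain of its own. Such proteins depend on partner kinases, among them SOBIR1, to pass the signal inwards, and the signal leads to rapid changes in the transcription of defence genes. With the receptor or a partner kinase removed, the comparison asks which transcripts still differ after XEG1.

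Transcript levels were given as TPM, an abundance corrected for transcript length and scaled to a total of 1e+06 in every library, so that sequencing depth is unknown. Of 59814 genes, 36154 averaged 1 TPM or more across the 8 libraries and were tested, and 34866 to 36831 genes reached 1 TPM in a single library. The gene identifiers were not paired with gene names. RXEG1, SOBIR1 and tissue markers therefore could not be looked up, and neither the knockouts nor the tissue were checked against the data. Changes are differences in log2(TPM + 1), on which weakly expressed genes appear to change less than they do. In whole seedlings, fewer cells of a type and less RNA per cell cannot be told apart.

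The largest difference among the 8 libraries lay between replicates and not between treatments. A first principal component with 55.54% of the variance set both rxeg1 replicate 2 libraries, mock and XEG1, at 60.6 and 64.1, apart from the other 6 libraries, which lay between -39.8 and 5.46. Across genes, rxeg1 mock and XEG1 libraries of the same replicate number correlated at 0.988 and 0.987, while the 2 rxeg1 mock libraries correlated at 0.958 and the 2 rxeg1 XEG1 libraries at 0.957. In the sobir1/sobir1-like knockout the values were 0.988 and 0.984 within a number, 0.984 between the mock replicates and 0.983 between the XEG1 replicates. The knockout comparisons are therefore given both without and with a replicate block. With it, each XEG1 library is set against the mock library of the same genotype and number. The wild-type lists below were made without a block. The labels do not say what a shared number stands for.

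No gene was called for XEG1 pooled over both knockouts at a Benjamini-Hochberg adjusted p under 0.05 in limma without a block, which is 0% of the 36154 tested. At an unadjusted p under 0.05 the same fit held 781 genes (2.16%), 577 of them higher and 204 lower, where evenly spread p-values would give 1808. The rxeg1 replicate 2 libraries bore on this count, since 14 genes (10 higher, 4 lower) were called without both of them. Differences were small for nearly all genes. The median change over all genes was 0.01 log2 units, 52.55% of genes had a positive change, and 66 genes differed by at least 1 log2 unit in either direction. The median standard error was 0.16 and the median 95% interval reached 0.36 to either side. For 34971 genes (96.73%) the whole interval lay within 1 log2 unit of no change, and for 36050 (99.71%) within 2.

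With the replicate block the same contrast called 164 genes (0.454% of those tested), 118 higher (0.326%) and 46 lower (0.127%) after XEG1. The median standard error fell to 0.09. At an unadjusted p under 0.05 this fit held 3823 genes (10.6%), 2308 higher and 1515 lower, beside 1808 for evenly spread p-values. The 118 higher genes had changes from 0.36 to 1.69 log2 units with a median of 0.62, a median ratio of 1.54 on the TPM + 1 scale, and 12 of them reached 1 log2 unit. The 46 lower genes had changes from -1.56 to -0.37 with a median of -0.76, and 9 reached 1 log2 unit. The median level over the 8 libraries was 16.1 TPM (range 1.10 to 131) for the higher and 10.6 TPM (range 2.12 to 224) for the lower genes.

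The count of 164 rested on particular libraries and settings. It was 352 without the rxeg1 replicate 2 pair, 68 without the rxeg1 replicate 1 pair, 62 without the sobir1/sobir1-like replicate 2 pair and 39 without the sobir1/sobir1-like replicate 1 pair. Of the 164 genes, 149, 58, 55 and 31 were called in these 4 fits in the same order. With no filter on low values, 9 genes were called. A single block shared by both genotypes called 15 (0.0415%).

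All 118 higher genes rose in each of the 4 pairs and all 46 lower genes fell in each, which the choice of genes made likely and which is given as a description. Among the 118, 74 had both XEG1 libraries above both mock libraries in each knockout (2.49% of all genes tested did), and 49 had all 4 XEG1 libraries above all 4 mock libraries (1.18%). Among the 46, 28 were separated in the other direction in each knockout (1.13%) and 20 over all 8 libraries (0.49%). The median change of the 118 was 0.63 and 0.52 in the rxeg1 pairs 1 and 2, and 0.65 and 0.62 in the sobir1/sobir1-like pairs. The 46 had medians of -0.76, -0.62, -0.68 and -0.92 in the same order. Without the block, 108 of the 118 and 40 of the 46 had an unadjusted p under 0.05. Among all genes tested, 1.6% were higher and 0.564% lower at that p. The genes were chosen on these same libraries, so the separations and these counts are descriptions too. The 118 genes lay on 109 scaffolds and the 46 on 38. Scaffolds with 2 or more genes of the same set held 17 of the 118 and 15 of the 46. No such share was computed over all genes tested, so these counts cannot be read as clustering.

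**Figure D1:**
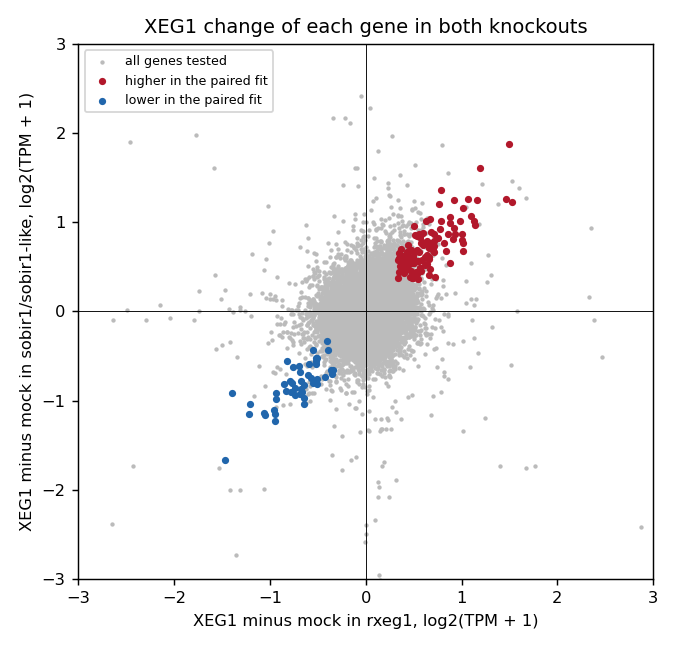
Change after XEG1 in log2(TPM + 1), rxeg1 on the horizontal and sobir1/sobir1-like on the vertical axis, each from 2 XEG1 and 2 mock libraries. Each point is 1 of the 36154 genes tested, with the 118 higher genes of the paired fit in red and the 46 lower genes in blue; both axes stop at 3 log2 units, and 10 genes lie outside. The coloured points lie in the 2 quadrants of shared direction, at the edge of a cloud centred near 0.

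Niben101Scf05712g03020 had the largest rise among the genes called with the block. Its levels in rxeg1 were 14.4 and 23.2 TPM after mock and 55.3 and 51.8 TPM after XEG1. In sobir1/sobir1-like they were 28.9 and 13.6 TPM after mock and 82.0 and 69.5 TPM after XEG1. All 4 XEG1 libraries lay above all 4 mock libraries. The change was 1.69 ± 0.18 log2 units with the block (SE, limma adjusted p = 0.0293), and without it the SE was 0.23 and the adjusted p 0.62. Wild-type levels went the other way, from 37.1 and 51.9 TPM after mock to 21.2 and 25.2 TPM after XEG1. This wild-type change was -0.90 log2 units as deposited and -0.49 once libraries were scaled by median ratios. The knockout response exceeded the wild-type response by 2.58 ± 0.39 log2 units as deposited (SE, 12 libraries, limma adjusted p = 0.000739). The call with the block was lost without the rxeg1 replicate 1 pair (adjusted p = 0.249), without the sobir1/sobir1-like replicate 1 pair (adjusted p = 0.141) and with no filter on low values (adjusted p = 0.0661).

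Niben101Scf03861g00008 had the next largest rise with the block and the smallest p without it. Its levels in rxeg1 were 5.32 and 5.84 TPM after mock and 15.75 and 12.5 TPM after XEG1. In sobir1/sobir1-like they were 5.62 and 5.17 TPM after mock and 19.05 and 18.0 TPM after XEG1. The 2 treatments did not overlap, and the mock libraries of both knockouts lay within 1 TPM of each other. The change was 1.40 log2 units (95% interval 1.16 to 1.65, limma adjusted p = 0.00355) with the block and missed the threshold without it (adjusted p = 0.124). In wild type the same gene went from 12.4 and 10.1 to 227 and 170 TPM, a change of 4.02, and its knockout response minus the wild-type one was -2.61 ± 0.23 log2 units (SE, limma adjusted p = 2.11e-05). The next identifier on the same scaffold, Niben101Scf03861g00009, had the second smallest p among the higher genes without a block (adjusted p = 0.192 in limma). It ran from 5.17 to 7.55 TPM after mock and from 13.3 to 17.95 TPM after XEG1 in the knockouts. No source used here states how reads common to neighbouring or duplicated genes were divided.

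Among the lower genes, Niben101Scf15393g00005 had the largest fall with the block. Its levels in rxeg1 were 6.09 and 4.86 TPM after mock and 1.37 and 1.298 TPM after XEG1. In sobir1/sobir1-like they were 10 and 4.08 TPM after mock and 2.61 and 0.541 TPM after XEG1. The treatments did not overlap, although the sobir1/sobir1-like mock replicates differed from each other by more than either rxeg1 group did. The change was -1.56 ± 0.10 log2 units with the block (SE, limma adjusted p = 0.00128), and without it the SE was 0.31 and the adjusted p 0.975. In wild type the mock libraries stood at 8.71 and 2.23 TPM and the XEG1 libraries at 2.69 and 1.97 TPM, so that the groups overlapped (limma adjusted p = 0.335).

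Niben101Scf10199g00005 fell with the block by 1.18 log2 units. It had 4.57 and 2.46 TPM after mock and 1.19 and 0.62 TPM after XEG1 in rxeg1, and 4.42 and 3.68 TPM after mock and 1.61 and 0.979 TPM after XEG1 in sobir1/sobir1-like. Its standard error was 0.10 with the block (limma adjusted p = 0.00404) and 0.20 without it (adjusted p = 0.768). Wild-type mock libraries at 6.78 and 1.94 TPM overlapped the XEG1 libraries at 4.49 and 3.17 TPM. The difference between the knockout and the wild-type response of this gene was called with the block (limma adjusted p = 0.0037) and not without it (adjusted p = 0.101).

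Without a block, the lower genes of smallest p were Niben101Scf05749g02032 and Niben101Scf03889g01006, neither of them called (limma adjusted p = 0.675 and 0.768). The former ran from 17.6 to 26.0 TPM after mock and from 8.48 to 13.4 TPM after XEG1 in the knockouts. The latter ran from 11.6 to 20.4 TPM after mock and from 6.29 to 8.94 TPM after XEG1. Their changes of -1.10 and -1.11 log2 units were called with the block (limma adjusted p = 0.013 and 0.0122), and both had larger falls in wild type, with changes of -2.46 and -2.54.

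**Figure D2:**
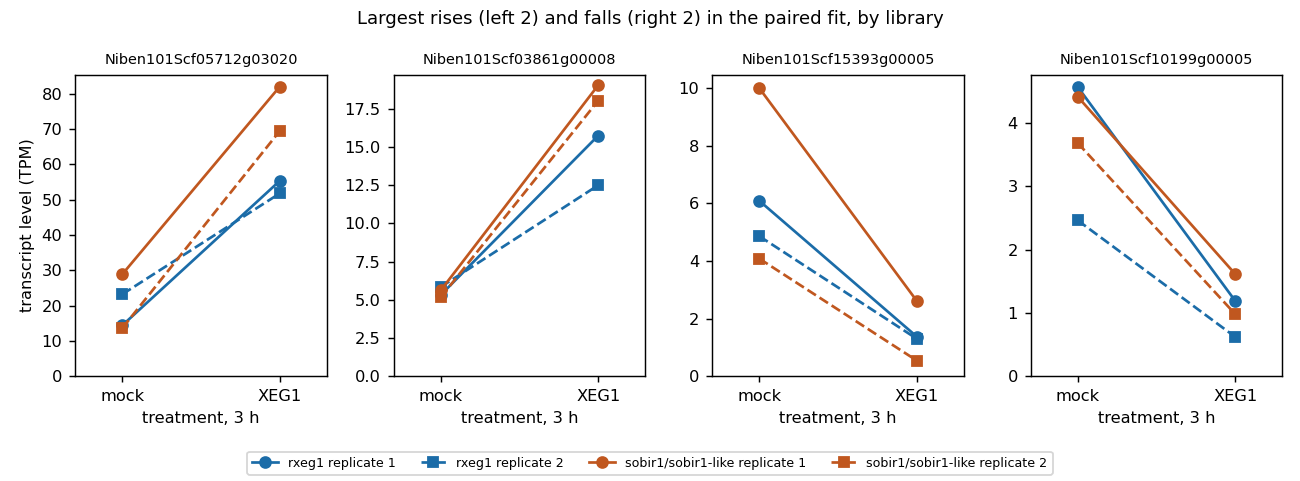
Level in TPM of the 2 genes with the largest rise and the 2 with the largest fall among those called with the replicate block, for the mock and the XEG1 library of each of the 4 pairs; lines join the libraries of a pair. All 4 lines rise in the 2 panels on the left, Niben101Scf05712g03020 and Niben101Scf03861g00008, and fall in the 2 on the right, Niben101Scf15393g00005 and Niben101Scf10199g00005.

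Each knockout was also tested on its own. Without a block, limma called 2 genes in rxeg1 (0.00553%) and none in sobir1/sobir1-like (0%), with 248 (0.686%) and 544 (1.5%) genes at an unadjusted p under 0.05. With the block it called 11 in rxeg1 (0.0304%, 5 higher and 6 lower) and 110 in sobir1/sobir1-like (0.304%, 82 higher and 28 lower). At an unadjusted p under 0.05 the blocked fit held 1991 (5.51%) and 3962 (11%) genes in the same order. The test of the difference between the 2 knockout responses called 1 gene without the block (0.00277%) and 8 with it (0.0221%). The unequal counts in the 2 knockouts do not by themselves show that their responses differed. None of the 164 genes had an unadjusted p under 0.05 for the difference between the knockouts without the block, but the fit that chose them favours genes that change alike in all 4 pairs, so this says nothing about whether the responses differed. Their median change was 0.58 in rxeg1 and 0.67 in sobir1/sobir1-like for the higher genes, and -0.68 and -0.81 for the lower genes. The change was the larger one in rxeg1 for 37 of the 118 and for 12 of the 46.

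The 2 genes called in rxeg1 without a block rested on listed zeros, which can be failed estimates. Niben101Scf10440g00024 stood at 54.6 and 54.9 TPM in the rxeg1 mock libraries and was listed at 0 in both rxeg1 XEG1 libraries. It stood between 55.6 and 61.8 TPM in all 4 sobir1/sobir1-like libraries, and it was the single gene called between the knockouts (limma adjusted p = 0.000139). The same gene was listed at 0 in 5 of the 28 libraries, among them 1 wild-type XEG1 library whose replicate held 51.6 TPM. Niben101Scf05516g04022 was listed at 0 in both rxeg1 mock libraries and had 6.57 and 8.69 TPM in the rxeg1 XEG1 libraries (limma adjusted p = 0.0237 in rxeg1, 0.966 for the difference between the knockouts). No fold is given for either.

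Over all 36154 genes the changes of the 2 knockouts, which share no library, correlated weakly (Pearson r = 0.23 across genes). Across the 2636 tested genes of the wild-type risen list described next, r was 0.45. The changes of replicate pair 1 and pair 2 correlated at 0.02 in rxeg1 and at 0.23 in sobir1/sobir1-like. These are descriptions across genes, which are not independent, and all values come from the same 8 libraries.

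Genes that rose in wild type were mostly shifted slightly upwards in the knockouts. The 4 wild-type libraries alone defined the list, by a limma adjusted p under 0.05, a rise of at least 1 log2 unit and both XEG1 libraries above both mock libraries. It held 3375 genes (9.45% of the 35700 tested in wild type), of which 2636 passed the filter on low values in the knockouts and 739 did not. Over the whole list, the 739 included, the median change in the knockouts was 0.11 log2 units, and over the 2636 it was 0.13 with quartiles of 0.03 and 0.25, beside 0.01 over all genes tested. Of the 2636, 2149 (81.53%) had a positive change, beside 52.55% of all genes. The change was positive in all 4 pairs for 923 (35.02%), beside 11.1% of all genes. No gene of the list was called without a block, and with it 86 (3.263%) were higher, beside 0.326% of all genes, and 1 (0.0379%) was lower, beside 0.127%. The median of the list was 0.12 and 0.09 in the rxeg1 pairs, beside 0.02 and 0.01 over all genes of the same pairs. In the sobir1/sobir1-like pairs it was 0.17 and 0.18, beside -0.03 and 0.04. Without both rxeg1 replicate 2 libraries the pooled median was 0.15.

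The share of all TPM that came from the risen genes was higher after XEG1 in each pair of libraries. In rxeg1 it was 3.94% and 4.35% after mock and 4.38% and 4.71% after XEG1. In sobir1/sobir1-like it was 3.91% and 4.34% after mock and 4.67% and 5.28% after XEG1. The 4 mock libraries did not overlap the 4 XEG1 libraries, although rxeg1 mock replicate 2 and rxeg1 XEG1 replicate 1 differed by less than the replicates of either group. In wild type, whose libraries defined the list, the share was 4.89% and 4.76% after mock and 30.3% and 32.2% after XEG1.

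**Figure D3:**
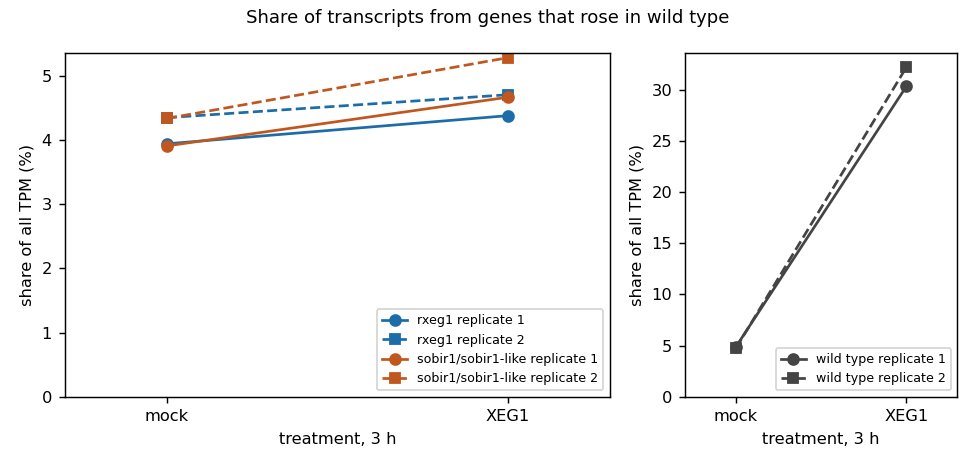
Share of all TPM of a library, in %, that came from the 3375 genes that rose in wild type, for the mock and XEG1 libraries of both knockouts (left) and wild type (right, on its own scale); lines join libraries of the same number. Each knockout line rises, by less than 1 percentage point, while the wild-type lines run from below 5% to above 30%.

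Genes that rose further in wild type had larger changes in the knockouts. Over whole bands of the list, genes that failed the filter included, the median knockout change was 0.09 for a wild-type rise of 1 to 2 log2 units (1792 genes), 0.14 for 2 to 4 (1278 genes), 0.20 for 4 to 6 (242 genes) and 0.31 for over 6 (63 genes). Among the genes that passed the filter the medians were 0.10, 0.18, 0.25 and 0.69. In the top band 32 of 63 passed, and since the filter favours genes that are high after XEG1, the value of 0.69 is a description of these 32 genes and not of the band. Among the genes that passed, the medians by band were 0.08, 0.12, 0.18 and 0.54 in rxeg1 and 0.12, 0.24, 0.35 and 0.78 in sobir1/sobir1-like.

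**Figure D4:**
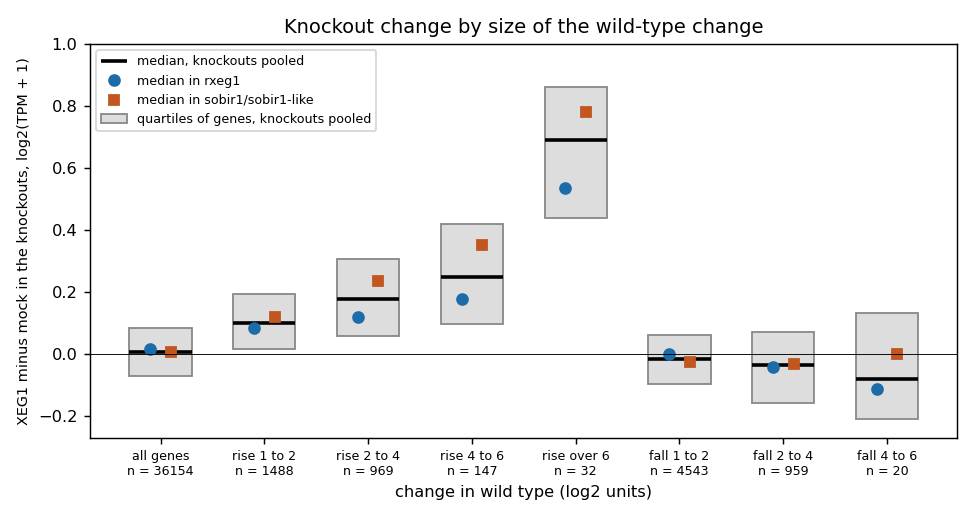
Change in the knockouts after XEG1, in log2(TPM + 1), for all genes tested and for genes grouped by the size of their rise or fall in wild type; grey boxes span the quartiles of the genes, black lines mark the median of both knockouts pooled, and symbols mark the median in each. Genes that passed the filter on low values are shown. The plotted medians of the risen bands run from 0.10 to 0.69, while over whole bands, genes that failed the filter included, they run from 0.09 to 0.31; those of the fallen bands lie between -0.08 and -0.02.

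The genes of largest wild-type rise stayed at or below 1.60 TPM in every knockout library. Niben101Ctg08590g00001 went from 0.0801 and 0.177 TPM to 564 and 790 TPM in wild type, was listed at 0 in 6 of the 8 knockout libraries and had 0.104 and 0.373 TPM in the sobir1/sobir1-like XEG1 libraries. Niben101Scf00354g01012 went from 0.717 and 0.226 to 670 and 769 TPM in wild type. In the knockouts it had 0.159 and 0.323 TPM after mock and 0.188 and 0.398 TPM after XEG1 in rxeg1, and 0.218 and 0.795 after mock and 0.456 and 1.60 after XEG1 in sobir1/sobir1-like. Its mock and XEG1 levels overlapped in each knockout, and within each of the 4 pairs the XEG1 library was the higher. Neither gene passed the filter in the knockouts, and the knockout response minus the wild-type one was -9.06 ± 0.26 and -8.73 ± 0.38 log2 units (SE, limma adjusted p = 1.52e-07 and 6.32e-07).

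Genes that fell in wild type had no shift of this size. Both wild-type lists were made on TPM as deposited, where the median of all genes fell by 0.40 log2 units in wild type. After median-ratio scaling this median fell by 0.05. Such an offset adds to falls and takes from rises, and neither list was remade after scaling. The fallen list held 5546 genes (15.5%), of which 5522 were tested in the knockouts. Their median change was -0.02 log2 units and 44.1% had a positive change, beside 52.55% of all genes. The median was -0.01 in both rxeg1 pairs, beside 0.02 and 0.01 over all genes of the same pairs. In the sobir1/sobir1-like pairs it was -0.08 and 0.03, beside -0.03 and 0.04 over all genes, and so lay below that of all genes in each of the 4 pairs. With the block 37 of these genes (0.67%) were lower, beside 0.127% of all genes, and 7 (0.127%) were higher, beside 0.326%. Of the 959 tested genes with a wild-type fall of 2 to 4 log2 units, 27 (2.815%) were lower with the block, beside 0.127% of all genes, and 151 (15.75%) fell in all 4 pairs, beside 7.71%.

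Niben101Scf24053g00003 had the largest wild-type fall, from 231.5 and 189 TPM to 3.87 and 1.66 TPM. It had 225 and 164 TPM after mock and 199 and 148 TPM after XEG1 in rxeg1, and 199.7 and 203 TPM after mock and 149 and 139.9 TPM after XEG1 in sobir1/sobir1-like. The treatments overlapped in rxeg1 and not in sobir1/sobir1-like. The knockout change of -0.32 ± 0.14 log2 units (SE) was not called (limma adjusted p = 1, or 0.183 with the block). Niben101Scf03302g00009 fell from 83.6 and 64.9 to 1.67 and 0.639 TPM in wild type and stayed between 51.9 and 84.6 TPM in the 8 knockout libraries (limma adjusted p = 1, or 0.35 with the block). Its treatments overlapped in rxeg1. In sobir1/sobir1-like it had 84.6 and 84.3 TPM after mock and 66.4 and 51.9 TPM after XEG1. For these genes the knockout response lay above the wild-type response by 5.55 ± 0.33 and 4.85 ± 0.31 log2 units (SE, limma adjusted p = 2.31e-06 and 3.71e-06).

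The test of the knockout response against the wild-type response, over 12 libraries, called 12227 of 36338 genes (33.6%), 8774 (24.1%) with a knockout response above and 3453 (9.5%) below the wild-type one. The median of all genes fell by 0.40 log2 units in wild type, and by 0.05 once libraries were scaled by median ratios. With that scaling 9817 genes were called, 4400 above and 5417 below, so the share above was 71.76% as deposited and 44.82% after scaling. With the block 20292 genes (55.8%) were called. Leaving out a wild-type replicate 2 library lowered the count to 7991 (mock) or 7236 (XEG1). Of the 3112 risen genes tested, 2894 were called, among them all 242 and all 63 of the bands of largest rise, and of the 5529 fallen genes tested 4928 were called. Both lists were chosen by a large change in the wild-type libraries that enter this test, so a difference was built in and these counts are descriptions.

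The 164 genes of the paired fit had mostly changed in wild type as well. Of the 118 higher genes, 86 (72.88%) were on the wild-type risen list, beside 7.29% of all genes tested, 7 were on the fallen list and 25 on neither. The median wild-type change of the 118 was 2.31 log2 units (range -2.37 to 7.57), with 101 above 0 and 17 below (103 and 15 after median-ratio scaling). The 86 risen genes had a median of 0.68 in the knockouts and 3.26 in wild type. The 25 genes on neither list had 0.58 in the knockouts and 0.09 in wild type, and the 7 fallen ones had 0.48 and -1.70.

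Of the 46 lower genes, 37 (80.43%) were on the wild-type fallen list, beside 15.3% of all genes tested, 1 was on the risen list and 8 on neither. Their median wild-type change was -2.36 log2 units, or -2.06 after median-ratio scaling. The 37 fallen genes had a median of -0.73 in the knockouts and -2.46 in wild type. The 8 on neither list had -0.79 and -0.12.

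The knockout response differed from the wild-type response for 91 of the 118 higher genes and 31 of the 46 lower genes, beside 33.6% of all genes. Of the 91, it lay below the wild-type response for 75 and above it for 16. Among the 31, it lay above the wild-type value for 30 and below for 1. After median-ratio scaling 89 and 15 were called, beside 27% of all genes, and for the lower genes this count lay near that share. The knockout values that chose the genes also enter this test. The 118 genes together took 0.21% and 0.23% of all TPM in the rxeg1 mock libraries and 0.327% and 0.323% in the rxeg1 XEG1 libraries, and 0.219% and 0.253% against 0.351% and 0.402% in sobir1/sobir1-like. In wild type they took 0.304% and 0.308% after mock and 3.93% and 3.97% after XEG1.

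The construct lines, with mock and XEG1 libraries of their own, were compared for the same genes. Of these lines, 2 carried RXEG1synΔCT and 2 carried that construct with further changes, named Δ90-95/Q786AK791A and Δ90-95/Δ786-792 here. Since they hold a form of the receptor gene, they are not a repeat of the knockouts. In a paired fit over their 16 libraries limma called 408 of 36741 genes (1.11%), 376 higher (1.02%) and 32 lower (0.0871%). Of the 118 higher genes, 117 were tested there and 68 were called, all of them higher. Of the 46 lower genes 5 were called, all of them lower. Without the block limma called 337 genes (0.917%) in these lines, among them 70 of the 118 and 3 of the 46. The 118 had a median change of 0.73 in the first ΔCT line and 0.78 in the second. For Δ90-95/Q786AK791A the median was 0.65, and for Δ90-95/Δ786-792 it was 0.61, with, over the 4 lines in turn, 117, 111, 107 and 117 genes above 0, against 66.24%, 56.42%, 53.57% and 62.85% of all genes. The 46 lower genes had medians of -0.23, -0.96, -1.39 and -0.52 in the same order, with 37, 46, 46 and 41 below 0. In the first ΔCT line the 2 pairs were unlike, so its values average uneven changes. The median log2(TPM + 1) of the 46 went from 3.91 to 2.95 in replicate 1 and from 2.35 to 2.97 in replicate 2. That of the 118 went from 3.33 to 3.65 and from 2.58 to 3.90. The pooled construct change correlated with the pooled knockout change at 0.44 across all genes.

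The 4 named genes went the same way in the construct lines, and each was called there by limma with the block. Niben101Scf05712g03020 changed by 1.18 ± 0.15 log2 units (SE, adjusted p = 0.0125) and Niben101Scf03861g00008 by 1.77 ± 0.17 (adjusted p = 0.00443). Niben101Scf15393g00005 changed by -2.14 ± 0.20 (adjusted p = 0.00443) and Niben101Scf10199g00005 by -0.94 ± 0.13 (adjusted p = 0.0132). Niben101Scf05712g03020 was thus higher after XEG1 in both knockouts and the construct lines and lower in both wild-type XEG1 libraries as deposited. Its wild-type change was smaller after median-ratio scaling (-0.49 log2 units).

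**Figure D5:**
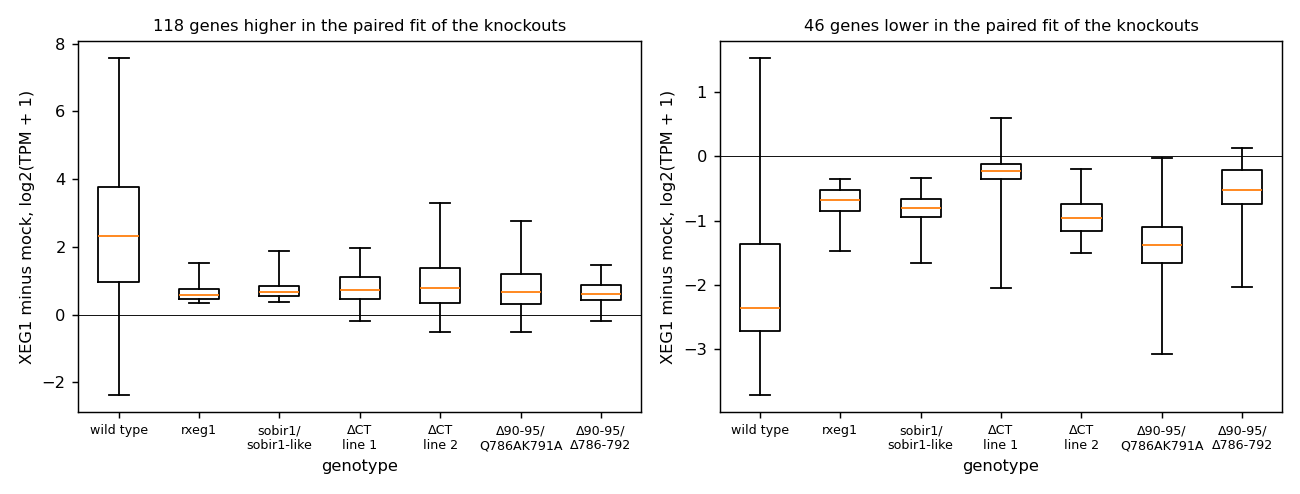
Change after XEG1 in log2(TPM + 1) of the 118 higher genes (left) and 46 lower genes (right) of the paired knockout fit, in each of the 7 genotypes; boxes span the quartiles of the genes, lines mark medians and whiskers reach the lowest and highest gene. The knockout boxes show the values by which the genes were chosen. Wild-type medians of 2.31 and -2.36 lie farthest from 0, and the medians of the other 4 genotypes share the sign of the knockouts. The first ΔCT line averages 2 pairs in which the median level of the lower genes went opposite ways.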

How the data were processed

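Genotype and treatment labels set the groups. Per the labels' protocols, an E.Z.N.A. kit gave the RNA and an MGIEasy kit the libraries. The submitters' processing notes name HISAT2 2.0.4, which aligns spliced reads. Build, annotation and the TPM step are not stated in them. The authors deposited 1 TPM list per library, and these lists were used. Each totals 1e+06, so depth, counting intervals and count-based tests cannot be had.

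Genes averaging 1 TPM or more across the libraries of a fit were tested on log2(TPM + 1), a pseudocount of 1, with limma 3.58.1 (mean-variance trend, robust shrinkage) in R 4.3.3 with statmod 1.5.0. Benjamini-Hochberg adjustment ran over all genes tested, and an adjusted p under 0.05 was called. The pooled fit had terms for genotype and treatment and 5 residual degrees of freedom. The paired fit added 1 term for each genotype and replicate number and kept 3. Replicate numbers come from the titles. Deviations of same-numbered mock and XEG1 libraries from their group means had a correlation of 0.73 (rxeg1) and 0.35 (sobir1/sobir1-like). With 2 libraries a group these mirror each other, so the 4 pairs give 2 distinct values. Both passed the limit of 0.1 set for treating numbers as pairs. Same-numbered libraries of different genotypes passed it as well, with correlations from 0.11 (both mock) to 0.354 (both XEG1). The limit therefore does not single out pairs within a genotype from a number shared by the genotypes. Nothing says that replicates came from separate plants or batches, and the spread behind each p-value may be technical.

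The members and lists were chosen with earlier results of these data known. Per fit, the genes named were the 2 with the largest called change each way, with a mean log2(TPM + 1) over 1 and both XEG1 libraries beyond both mock libraries in each knockout. Where none was called they were the 2 of smallest p, and the 2 largest wild-type rises and falls were added. The 2 genes with listed zeros were named after their values were seen. Lists by gene function were not used, because identifiers had no names. Alternatives were a pseudocount of 0.1, other filters (none, or 5 TPM), both blocks and median-ratio scaling. Others were a fit of all libraries, a log2 threshold of 1 and leaving out each library. A further one dropped genes listed at 0 beside 1 TPM or more in the replicate, 201 of those tested in the knockouts. In the knockout fits it kept the 2 genes called in rxeg1, which were at 0 in both libraries of a group. Fits were tested on simulated data. Figures were drawn with matplotlib 3.10.9.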

Additional observations from a re-analysis of the deposited data

Results flagged for a closer look

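The response to XEG1 differed between the 2 knockouts and wild type for 12227 of 36338 genes (33.6%) by limma's test of the difference itself. After median-ratio scaling 9817 genes (27%) were called. The genes with a knockout response above the wild-type one went from 8774 to 4400. The response differed between sobir1/sobir1-like and rxeg1 for 1 gene, Niben101Scf10440g00024. This gene was listed at 0 in both rxeg1 XEG1 libraries and stood above 54 TPM in the other 6 knockout libraries.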

How the results depend on the processing

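The pooled count of 0 calls became 15 with a replicate block shared by the genotypes, 164 with the replicate block within each genotype, 1 (Niben101Scf03861g00008, limma adjusted p = 0.029) in a fit of all 28 libraries, 14 (10 higher, 4 lower) without both rxeg1 replicate 2 libraries, and 0 to 1 when single libraries were left out. The paired count of 164 became 9 with no filter, 33 without trend and robust shrinkage, 21 with a log2 threshold of 1, and 68, 352, 39 and 62 without 1 pair (rxeg1 1, rxeg1 2, sobir1/sobir1-like 1 and 2). It ran from 114 to 195 under a pseudocount of 0.1, 5 TPM, median-ratio scaling and dropping genes with a 0 in only 1 replicate. The alternatives of the paired count, and leaving out both rxeg1 replicate 2 libraries, were added after the data were seen. The count of 1 gene differing between the knockouts became 2 with a pseudocount of 0.1, 8 with the replicate block, 0 in the fit of all libraries, and 1 to 3 without single libraries. The 2 calls in rxeg1 became 1 with no filter or at 5 TPM, 11 with the replicate block, 0 in the fit of all libraries, and 1 to 5 without single libraries. The 0 calls in sobir1/sobir1-like became 110 with the replicate block and 0 to 2 without single libraries. The 12227 genes differing from wild type became 20292 with the replicate block, 9817 with median-ratio scaling and 7939 with a log2 threshold of 1. Without single libraries this count ran from 7236 to 13688. The cause of these changes was not tested. The median of the wild-type risen genes stayed above 0 under every alternative run, from 0.09 to 0.19. That of the fallen genes ran from -0.05 to 0.02, above 0 without rxeg1 mock replicate 2 or rxeg1 XEG1 replicate 1, where the median of all genes was 0.07 and so above it. No knockout change, or difference from wild type, recomputed for a named gene changed direction; the 2 genes with listed zeros were not recomputed. TPM keep no depth, so no limit set by depth can be given.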
